A study of Drosophila melanogaster with 6 samples.

Results

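The Yellow family is a group of secreted insect proteins related to the major royal jelly proteins of the honeybee. Its founding member, yellow, is needed for black pigment in the fly cuticle, and most of its other members are far less well understood. Of these, yellow-f and yellow-f2 of Drosophila have been shown to act as dopachrome conversion enzymes, which speed a step of melanin synthesis. Melanin and cuticle tanning both start from tyrosine, which is turned into dopa and dopamine and then oxidised and cross-linked in the cuticle, and the epidermis makes much of this machinery around each moult and at the formation of the puparium.

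The genes described here are yellow-b, yellow-c, yellow-d, yellow-d2, yellow-e, yellow-e2, yellow-e3, yellow-f, yellow-f2 and yellow-h. They were taken by symbol and make up 10 of the 11621 genes of the table, and all 10 had enough counts to be tested. The gene y itself was left out of the comparison because the tumour-bearing larvae carry a y+ cassette. RNA was sequenced from larval cuticles, that is the body wall with its skeletal muscles after removal of the internal organs. There were 3 samples from tumour-bearing larvae taken 10 days after egg laying and 3 samples from w1118 control larvae taken 7 days after egg laying. The tumour-bearing larvae carried y and w mutations on the X, ey-flp, an act5C>y+>GFP cassette over UAS-RasV12, and FRT82B with tub-gal80 over FRT82B with scrib1. In this design ey-flp makes clones in the eye discs that lose scrib and express RasV12, whereas the body wall is host tissue that carries the same transgenes and is heterozygous for scrib1. The w1118 larvae carry a white mutation and none of these transgenes. The series text gives 40 pooled cuticles per sample (the methods of the paper give a different number), and no source says whether the 3 samples of a group are separate cultures. The p-values therefore describe spread among the deposited samples, part of which may be technical. Age and genetic background cannot be told apart from the tumour in this design. The column headers carry a different lane code for each library, so lane cannot be told apart from library or group either.

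The libraries held 62617114 to 77801818 counts in tumour-bearing samples and 69920428 to 84149121 counts in control samples. Values below are normalized counts, meaning raw counts divided by library sizes scaled with TMM (a method that discounts the few genes that dominate a library) and brought back to the mean library. TMM factors were 1.33 to 1.44 in tumour-bearing samples and 0.63 to 0.841 in control samples. With total counts alone the middle log2 fold change over the tested genes was 0.94, against 0.01 with TMM, and the changes of all 10 Yellow genes moved up as well. Control replicate 3 stood somewhat apart: its Spearman correlation with the other control libraries was 0.955 to 0.968, against 0.988 between control replicates 1 and 2 and 0.985 to 0.991 among tumour-bearing samples. Results are therefore also given without it where it matters. The tissue was checked with marker genes. Summed markers of epidermis and cuticle took 0.349% to 0.426% of counts in tumour-bearing samples and 10.7% to 15.7% in control samples, and 0 of 12 rose while 9 fell. Most of the control sum came from Lcp1 to Lcp4, which averaged 2442217 to 4636914 normalized counts there, against 86979 for verm, the next highest. Their log2 fold changes were -11.88 to -6.92. The other markers that fell had -4.81 to -1.34, and grh (-0.39), ect (-0.62) and Gasp (0.40) did not pass. Body wall muscle markers took 1.74% to 2.65% of counts in tumour-bearing samples and 3.31% to 10.4% in control samples, with 0 of 12 higher and 8 lower. Haemocyte markers took 0.206% to 0.523% of counts in tumour-bearing samples and 0.0335% to 0.0554% in control samples, with 6 of 8 higher and 0 lower. Of all genes tested, 23.8% were higher and 23% lower. With total counts 2 epidermis and cuticle markers rose and 6 fell, 1 muscle marker rose and 8 fell, and 7 haemocyte markers rose and 0 fell. In that setting 61.4% of all genes tested were higher and 6.90% lower. No marker listed in the table was at 0 in all samples. In these bulk samples fewer cells of a type and less RNA per cell cannot be told apart, and the part of these marker changes in the results below was not tested.

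Most of the Yellow genes were lower in cuticles from larvae with tumours. Of the 10, 6 fell (yellow-d2, yellow-e, yellow-e2, yellow-e3, yellow-d and yellow-b), 1 rose (yellow-f2) and 3 did not pass the test (yellow-c, yellow-f and yellow-h). By the same test, edgeR's quasi-likelihood test with Benjamini-Hochberg adjustment at 0.05, 46.8% of all 10074 genes tested changed, with 23% lower and 23.8% higher. The median log2 fold change was -2.40 over the 10 genes and 0.01 over all genes tested. It was -1.62 without control replicate 3 and -1.51 with total counts. The normalized counts of the groups did not overlap for 7 of the 10, the same 7 that passed, against 61.6% of all genes tested. With total counts alone 4 of the 10 fell, as yellow-b and yellow-d no longer passed, and yellow-f2 still rose. In that setting 6.90% of all genes tested were lower and 61.4% higher.

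**Figure D1:**
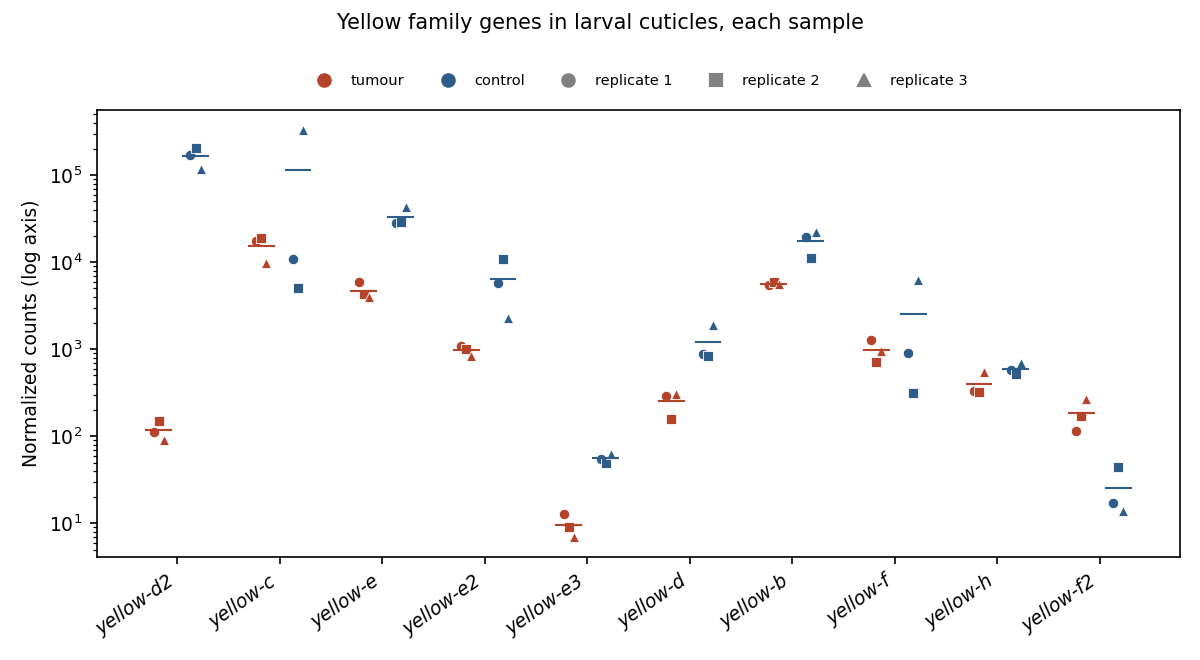
Normalized counts (log axis) of the 10 Yellow family genes in each of the 3 tumour-bearing (red, left) and 3 control (blue, right) samples, ordered by log2 fold change, where symbols mark the replicate and horizontal lines the group means. The largest gap between groups is that of yellow-d2, and for yellow-c and yellow-f control replicate 3 lies far above the other control samples.

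The largest change of the family was in yellow-d2. It had 113, 149 and 89.95 normalized counts in the tumour-bearing samples, against 169459, 205952 and 119073 in the control samples. All 3 control samples were thus high and all 3 tumour-bearing samples low, with no overlap. The mean was 117 ± 29.6 in tumour-bearing samples and 164828 ± 43624 in control samples (SD, n = 3 each). The log2 fold change was -10.46 (standard error 0.42, 95% interval -11.49 to -9.43, adjusted p = 0.000256 by edgeR), which is a level 1406-fold lower. By fold change yellow-d2 ranked 18 from the lowest among 10074 genes. By mean level it ranked 77 of 11621 genes in control samples and 8157 in tumour-bearing samples. In raw counts it took 0.131% to 0.170% of each control library. The result hardly moved with the processing, from -10.67 without control replicate 3 to -9.50 with total counts.

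In BDGP6 coordinates of the Ensembl annotation, yellow-d2 (FBgn0034856) lies on 2R from 23381197 to 23382591 on the plus strand, 758 bases beyond the end of yellow-d (FBgn0041712, 2R from 23378573 to 23380438). Both lie inside the span of CG13551 on the minus strand, and neither shares an exonic base with it. The neighbour yellow-d fell as well, but by far less. Its samples had 289, 159 and 308 normalized counts in tumour-bearing larvae, against 890, 827 and 1926 in control larvae. The groups did not overlap, and control replicate 3 was the highest. On the log2 scale yellow-d fell by 2.27 (standard error 0.44, adjusted p = 0.00885). The 95% interval of yellow-d, -3.34 to -1.20, does not meet that of yellow-d2, although no test of the difference was run. CG13551 itself averaged 9017 ± 559.6 normalized counts in tumour-bearing samples and 37904 ± 10977 in control samples (SD, n = 3 each), a log2 fold change of -2.07 (adjusted p = 0.00171). Per kilobase of exon, yellow-d2 stood at 0.382 to 1.22 times the level of yellow-d in tumour-bearing samples, against 80.7 to 325 times in control samples. The call of yellow-d was lost with total counts (log2 fold change -1.39, adjusted p = 0.0515).

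The cluster of yellow-e3, yellow-e2 and yellow-e on 3R fell as a whole. The 3 genes lie in a row on the minus strand with no other gene between them: yellow-e3 (FBgn0038150) from 13403423 to 13404870, yellow-e2 (FBgn0038151) from 13405109 to 13406998 and yellow-e (FBgn0041711) from 13409543 to 13415286. In the silkworm, loss of yellow-e alters the pigmentation of the larval head and tail. In tumour-bearing samples yellow-e had 5926, 4302 and 3953 normalized counts, against 28647, 28680 and 43013 in control samples. Every tumour-bearing sample was far below every control sample, and the log2 fold change was -2.82 (standard error 0.26, 95% interval -3.46 to -2.18, adjusted p = 0.00104). For yellow-e2 the values were 1090, 1013 and 843 in tumour-bearing samples, against 5737, 11031 and 2285 in control samples. The groups were again apart, but the control samples differed 4.83-fold among themselves, with control replicate 2 highest and control replicate 3 lowest. Its log2 fold change was -2.69 (standard error 0.57, adjusted p = 0.0117), or -2.05 without control replicate 2 and -3.11 without control replicate 3. With each sample left out in turn, the highest adjusted p of yellow-e2 was 0.0497 by edgeR, without tumour replicate 2, so its fall passed narrowly there. The third gene of the row, yellow-e3, was barely expressed, with 18, 10 and 9 raw counts in tumour-bearing samples and 36, 31 and 58 in control samples. It too fell by 2.54 on the log2 scale (standard error 0.37, adjusted p = 0.00346).

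The genes of this row kept very different levels. Per kilobase of exon, yellow-e stood at 335 to 405 times the level of yellow-e3 in tumour-bearing samples and at 370 to 492 times in control samples, ranges that overlap. The ratio of yellow-e to yellow-e2 was 3.62 to 4.63 in tumour-bearing samples, against 4.25, 2.22 and 16.0 in control replicates 1, 2 and 3. Only in control replicate 3 was yellow-e2 this low beside yellow-e, while its partner yellow-e was at its highest there. The log2 fold changes of the 3 genes lay between -2.82 and -2.54, each within the 95% intervals of the other two.

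On 2L, yellow-b (FBgn0032601, 16754336 to 16758283 on the plus strand) fell to 5549, 5876 and 5564 normalized counts in tumour-bearing samples, against 19608, 11111 and 22323 in control samples. The tumour-bearing samples lay within 1.06-fold of each other, and the lowest control sample was still well above them. The log2 fold change was -1.64 (standard error 0.27, 95% interval -2.30 to -0.98, adjusted p = 0.00523). With total counts it was -0.75 and did not pass (adjusted p = 0.0921). The last 100 exonic bases overlap an exon of ppk17 on the other strand, a channel subunit gene that the table lists as CG13278. That gene had 195 to 267 normalized counts in tumour-bearing samples and 421 to 821 in control samples, far fewer than yellow-b.

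The dopachrome conversion enzyme genes yellow-f and yellow-f2 lie side by side on the minus strand of 3R, yellow-f (FBgn0041710) from 12991449 to 12993201 and yellow-f2 (FBgn0038105) from 12993395 to 12995147, with 193 bases between them. Of the 10 genes, yellow-f2 was the only one to rise. It had 115, 173 and 270 normalized counts in tumour-bearing samples, against 16.9, 44.9 and 14.02 in control samples. The groups did not overlap, and the mean was 186 ± 78.4 in tumour-bearing samples and 25.3 ± 17.0 in control samples (SD, n = 3 each). The log2 fold change was 2.89 (standard error 0.59, 95% interval 1.45 to 4.34, adjusted p = 0.0105). With each sample left out in turn it ranged from 2.52 (without tumour replicate 3) to 3.59 (without control replicate 2). The highest adjusted p of these fits was 0.0467 by edgeR, without control replicate 1, so the rise passed narrowly there. The change of yellow-f2 rests on few reads, as the control samples held 11, 28 and 13 raw counts. Its neighbour yellow-f did not separate the groups. It had 1264, 716 and 958 normalized counts in tumour-bearing samples, against 912, 311 and 6325 in control samples. Control replicate 3 lay above all tumour-bearing samples, control replicate 1 among them and control replicate 2 below them. The log2 fold change of yellow-f was -1.36 (standard error 1.05, 95% interval -3.93 to 1.20, adjusted p = 0.318). Without control replicate 3 it was 0.66 (adjusted p = 0.321), so its sign depends on that library. No test compared the changes of both genes. Per kilobase, yellow-f stood at 3.61 to 11.2 times yellow-f2 in tumour-bearing samples, against 54.8, 7.04 and 458 times in control replicates 1, 2 and 3. Over 95 bases yellow-f overlaps an exon of CG31342 on the other strand, which was not high in control replicate 3 (4276 normalized counts, against 4081 and 4244 in control replicates 1 and 2). Reads that the neighbours yellow-f and yellow-f2 may share could not be checked from counts per gene.

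**Figure D2:**
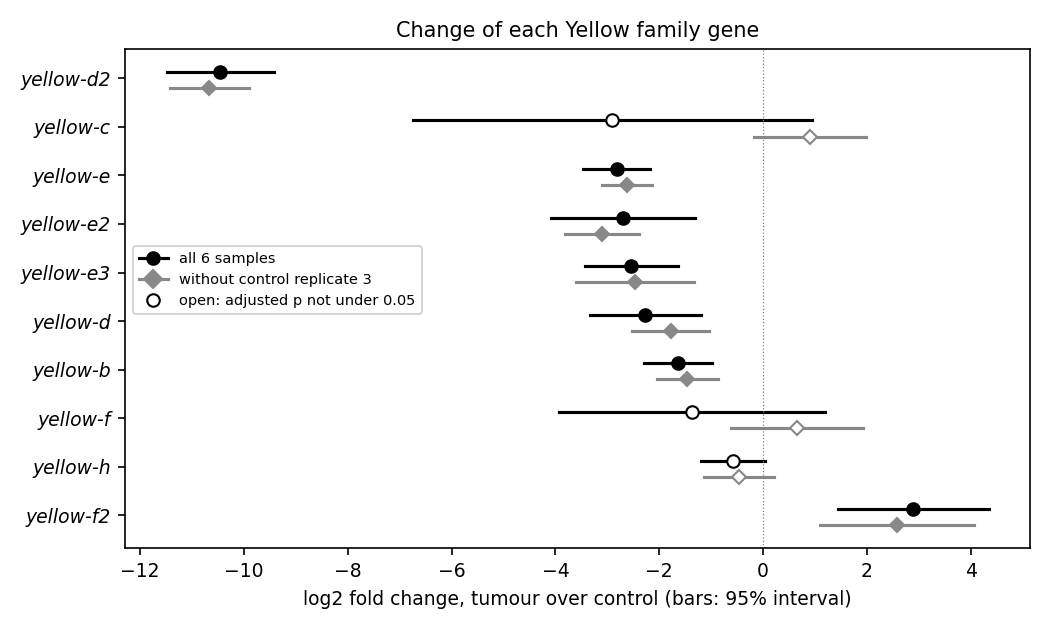
Log2 fold change, tumour-bearing over control, with 95% intervals (bars) for the 10 genes with all 6 samples (black circles) and without control replicate 3 (grey diamonds), where filled symbols passed an adjusted p of 0.05. The point for yellow-c moves from -2.90 with all samples to 0.90 without that library and the point for yellow-f from -1.36 to 0.66, while the other 8 genes keep their sign and their side of the test.

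The widest spread of the family was that of yellow-c, on 2L (FBgn0041713, 15035394 to 15037841 on the plus strand). It had 17335, 18803 and 9847 normalized counts in tumour-bearing samples, against 11029, 5131 and 327507 in control samples. Control replicate 3 alone was 40.5 times the mean of control replicates 1 and 2, and 0.361% of all its counts fell on this gene. Apart from that library the groups overlapped, with 2 tumour-bearing samples above and 1 below control replicate 1. The log2 fold change was -2.90 (standard error 1.56, adjusted p = 0.173), and without control replicate 3 it was 0.90 (95% interval -0.18 to 1.97, adjusted p = 0.136). Neither passed, and the direction turned with this library. The gene also has a partner on the other strand: 1197 of its 1600 exonic bases are covered by exons of CIAPIN1, listed as l(2)35Bg, which encodes a factor of cytosolic iron-sulphur protein assembly. Because the kit used keeps no strand information, reads from the shared part cannot be assigned to either gene. CIAPIN1 had 17785, 18684 and 11241 normalized counts in tumour-bearing samples, against 16666, 8570 and 285441 in control samples, close to those of yellow-c. The ratio of yellow-c to CIAPIN1 counts was 0.876 to 1.01 in tumour-bearing samples, against 0.662, 0.599 and 1.15 in control replicates 1, 2 and 3. In raw counts of control replicate 3 yellow-c was above CIAPIN1 (303580 against 264588). In control replicates 1 and 2 it was below CIAPIN1 (7173 against 10839, and 3201 against 5347). Thus the high value of control replicate 3 belongs to the locus, and how it divides between yellow-c and CIAPIN1 was not tested.

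The remaining gene, yellow-h (FBgn0039896), lies on chromosome 4 from 227922 to 230428 and shares 182 exonic bases with the antisense RNA asRNA:CR46065, so reads from that stretch cannot be assigned to either. It had 334, 326 and 543 normalized counts in tumour-bearing samples, against 584, 516 and 698 in control samples. The groups overlapped through tumour replicate 3. The log2 fold change was -0.58 (standard error 0.25, 95% interval -1.19 to 0.03, adjusted p = 0.102). It passed without tumour replicate 3 (-0.86, adjusted p = 0.0263), and with total counts it turned to 0.34 (adjusted p = 0.376).

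The levels of the 10 genes can be set against each other only per length, as CPM on the TMM-scaled library divided by the exonic length in kilobases. The level of yellow-c is left out of the order. Reads from the part shared with CIAPIN1 may be counted in it or missing from it, as the counting options are not given. As counted, yellow-c was at 126 ± 39.4 in tumour-bearing samples (SD, n = 3), against 90.4, 42.1 and 2685 in control replicates 1, 2 and 3. Among the other genes yellow-b had 40.4 ± 1.32 and yellow-e 33.6 ± 7.49 in tumour-bearing samples (SD, n = 3), and their samples overlapped. Next came yellow-f with 8.93 ± 2.51 and yellow-e2 with 8.20 ± 1.05, which overlapped, and then yellow-h with 3.50 ± 1.07. At the low end yellow-d, yellow-f2 and yellow-d2 had 1.89, 1.67 and 1.15, each overlapping its neighbour in this order, and yellow-e3 came last with 0.0956. In control samples yellow-d2 led with 1612 ± 427 (SD, n = 3). The order went on with yellow-e at 238 ± 58.9, yellow-b at 126 ± 41.7, yellow-e2 at 53.0 ± 36.8, yellow-f at 22.9 ± 30.2, yellow-d at 9.10 ± 4.62 and yellow-h at 5.23 ± 0.801. Of these neighbours, yellow-b and yellow-e2, yellow-e2 and yellow-f, and yellow-f and yellow-d had overlapping samples. The lowest were yellow-e3 at 0.556 ± 0.0642 and yellow-f2 at 0.227 ± 0.153, which did not overlap.

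The make-up of the family signal therefore differed between the groups. Its summed level per kilobase was 252, 249 and 175 in tumour-bearing samples, against 2160, 2446 and 4413 in control samples. In tumour-bearing samples yellow-c as counted, with the same limit on its shared reads, held 46.2% to 62.0% of this sum and yellow-d2 held 0.440% to 0.585%. In control samples yellow-d2 held 76.7% and 82.3% in replicates 1 and 2 but 26.4% in replicate 3, where yellow-c held 60.8%. With yellow-c left out because of its overlap, the sum was 94.0 to 110 in tumour-bearing samples and 1728 to 2404 in control samples.

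**Figure D3:**
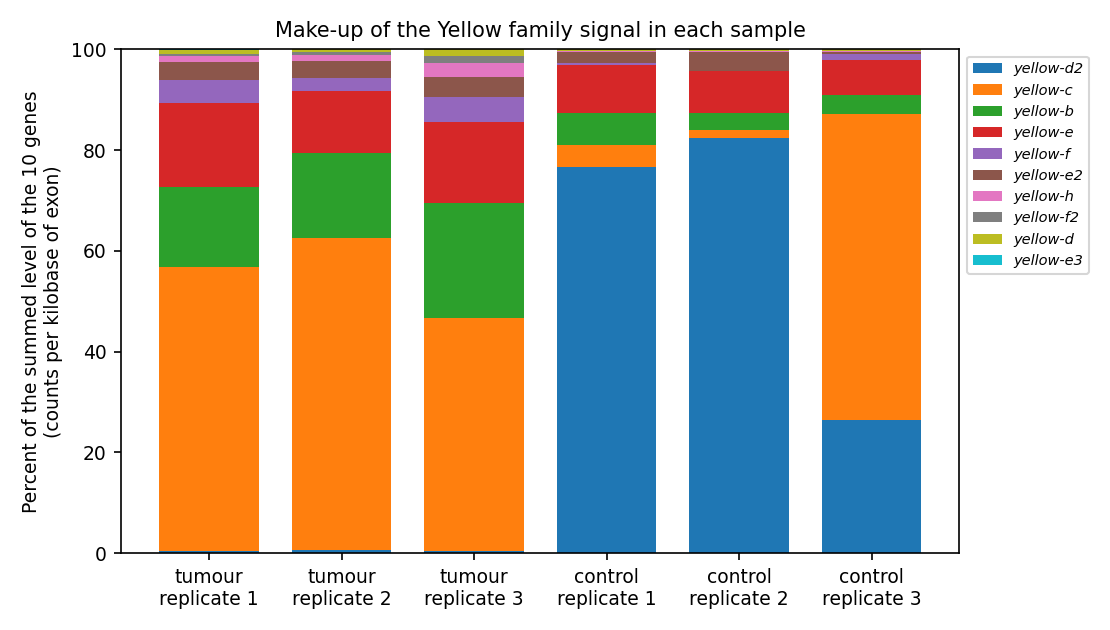
Percent of the summed level of the 10 genes (counts per kilobase of exon) held by each gene in each sample, stacked to 100, with tumour-bearing samples on the left and control samples on the right. In control replicates 1 and 2 yellow-d2 makes up 76.7% and 82.3%, and in the tumour-bearing samples yellow-c, yellow-b and yellow-e make up most of the sum.

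Within the control group the family moved in different directions. Relative to the mean of control replicates 1 and 2, control replicate 3 was higher for 7 of the 10 genes and lower for 3 (yellow-d2, yellow-e2 and yellow-f2). More than 4-fold above that mean were yellow-c and, at 10.3-fold, yellow-f, while 3.90% of all genes tested were this high. The same library was high in several genes of dopamine and melanin synthesis and low in others. Of the 17 listed, 5 lay more than 4-fold above the mean of control replicates 1 and 2. These values were picked out after they had been seen. The tyrosine hydroxylase gene ple, whose product makes dopa, had 424, 850 and 1010695 normalized counts in control replicates 1, 2 and 3. The gene e (ebony), which joins dopamine to beta-alanine, had 6.15, 9.62 and 217174. The gene b (black), which makes beta-alanine, had 6075, 2048 and 84263. In contrast, Hn, which makes tyrosine from phenylalanine, had 846, 2441 and 59.3. The prophenoloxidase genes PPO1 and PPO2 were also low in control replicate 3, at 0.208 and 0.242 times the mean of control replicates 1 and 2. Of all genes tested, 2.40% lay more than 4-fold below that mean. The genes amd and laccase2 stood at 0.359 and 0.559 times it. Thus the library in which yellow-f and the yellow-c locus were high was also the one with the highest ple, e, b, Pu and Ddc values.

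**Figure D4:**
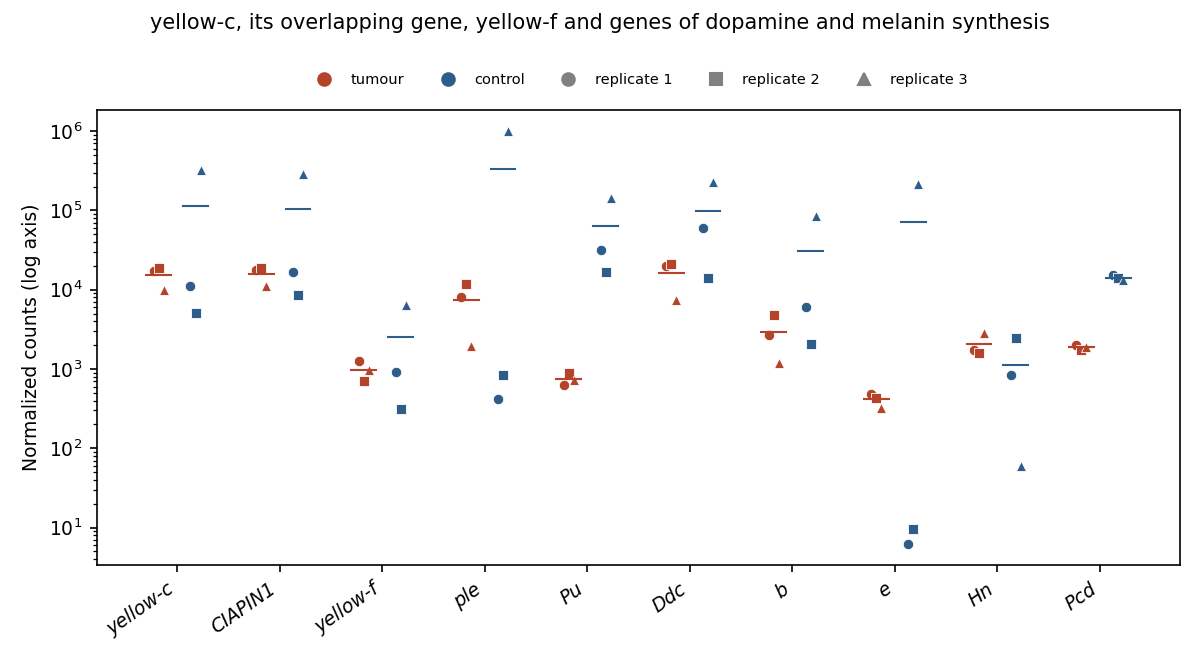
Normalized counts (log axis) of yellow-c, the gene CIAPIN1 that overlaps it, yellow-f and 7 genes of the tyrosine and dopamine pathway in each tumour-bearing (red, left) and control (blue, right) sample, with lines at the group means. Control replicate 3 (triangle) is the highest control sample for all but Hn and Pcd.

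The wider tyrosine, dopamine and melanin pathway moved both ways in tumour-bearing larvae. Among its 17 listed genes there were 7 that fell and 3 that rose, where 23% of all genes tested were lower and 23.8% higher, and the median log2 fold change was -2.52. Without control replicate 3, 8 fell and 5 rose and the median was -1.21, and of all genes tested in that setting 24.7% were lower and 25.1% higher. With total counts 5 fell and 4 rose, and of all genes 6.90% were lower and 61.4% higher. Those that fell included the genes that make and recycle the pterin cofactor of tyrosine hydroxylase. Pu, for GTP cyclohydrolase, averaged 750 ± 127 normalized counts in tumour-bearing samples and 64342 ± 69941 in control samples (SD, n = 3 each). Its log2 fold change was -6.42 (adjusted p = 0.00441), or -5.03 without control replicate 3. Pcd (log2 fold change -2.92, adjusted p = 0.000256), Dhpr (-3.54, or -2.85 without control replicate 3, adjusted p = 0.00887 with all samples) and pr (-1.80, adjusted p = 0.000397), which act in the same cofactor route, fell too. Further along the pathway, amd (-2.57, adjusted p = 0.0167), the oxidase laccase2 that tans the cuticle (-1.35, adjusted p = 0.0116) and the prophenoloxidase PPO1 (-2.52, adjusted p = 0.0370) fell. The calls of laccase2 and PPO1 were lost with total counts. Higher in tumour-bearing samples were Dat, a dopamine N-acetyltransferase (4517 ± 382 normalized counts, against 685 ± 218 in control samples, log2 fold change 2.72, adjusted p = 0.00121), PPO3, a prophenoloxidase of lamellocytes (2.31, adjusted p = 0.00585), and t (tan), which frees dopamine from its beta-alanine conjugate (2.83, adjusted p = 0.0243). The genes ple and e did not pass with all samples (log2 fold changes -5.52 and -7.45) and turned with control replicate 3: without it ple was 3.50 (adjusted p = 0.0230) and e was 5.70 (adjusted p = 0.000240), both higher in tumour-bearing samples.

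The genes whose pattern over the 6 samples was most like that of yellow-d2, the most abundant of the 10 on average, were CG8646, fau, Lcp4, GstO3 and CG5941, with Pearson r of 0.999 on log2 normalized counts for each. All 5 were lower in tumour-bearing samples. Such likeness over 6 points in 2 separate groups was not limited to these genes, as 146 of 10064 had r above 0.99. Among the 5 the larval cuticle protein gene Lcp4 had 4558, 4785 and 4584 normalized counts in tumour-bearing samples, against 5122257, 5969692 and 2786794 in control samples. It shares with yellow-d2 both the depth of the decrease (log2 fold change -9.96) and the order of the control samples, with control replicate 2 highest and control replicate 3 lowest. The way these genes were picked favours a like order, and it is not particular to Lcp4. The gene Lcp3 (log2 fold change -11.88) had the same order of control samples. In contrast, Lcp1 and Lcp2 were highest in control replicate 1 (5370262 and 2975987 normalized counts), although control replicate 3 was again the lowest control sample.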

How the data were processed

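The authors deposited 1 table of 11621 genes. Raw read counts per gene, as deposited, were used for every test, and each column was matched to a sample by its title. The 6 columns of the authors' normalized values were not used, nor were the authors' fold changes and p-values of the same comparison. The submitters' processing notes name TopHat, Bowtie, HTSeq, DESeq2 and the build BDGP6, and no versions or counting options are given in the sources used here. Coordinates and exon lengths come from the Ensembl annotation of BDGP6. Genes were filtered with filterByExpr, scaled by TMM and tested with the robust quasi-likelihood test of edgeR 4.0.16 (R 4.3.3), without covariates, with p-values adjusted by Benjamini-Hochberg over 10074 genes and a threshold of 0.05. Standard errors are the coefficient over the square root of F. Alternative fits used RLE factors, upper-quartile factors or total counts only, the 20 most abundant genes left out, DESeq2 1.42.0, no filter, at least 10 counts in every sample, the replicate number as a block, and each sample left out. All 10 genes are named by rule, as are pathway genes that passed and the 5 nearest profiles (log2 with 1 added). The genes and lists were chosen with earlier results of these data known.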

Additional observations from a re-analysis of the deposited data

How the results depend on the processing

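The log2 fold changes of yellow-b, yellow-d, yellow-d2, yellow-e, yellow-e2, yellow-e3 and yellow-f2 kept their direction under every alternative that gave a value, and all of these calls held except those of yellow-b (-0.75) and yellow-d (-1.39) with total counts only. The sign turned for yellow-c and yellow-f without control replicate 3, with values over the samples left out in turn of -3.46 to 0.90 for yellow-c and -1.88 to 0.66 for yellow-f, and for yellow-h (0.34) with total counts only, and none of these passed. Without tumour replicate 3 yellow-h did pass (-0.86). With DESeq2 yellow-c had no p-value, and yellow-e3 was not tested with at least 10 counts in every sample. Over the samples left out in turn, 1 member was higher each time and 6 to 7 were lower, while over all genes 1675 to 2590 were higher and 1380 to 2548 lower. The lower count was smallest without tumour replicate 2. With total counts only 6189 genes were higher and 695 lower, so that 89.9% of changed genes were higher, against 50.8% with TMM, and with upper-quartile factors 60.1%. The cause of these shifts was not tested. Same-numbered samples did not deviate together (correlations -0.05, 0.07 and 0.11), so the replicate block pairs numbers only. With that block 3572 genes changed, against 4713, 6 members fell and 1 rose, and yellow-c and yellow-f were each at -0.25. Low counts limit yellow-e3 and yellow-f2. Intervals assume that the spread between samples is estimated well from 3 per group.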

Other observations

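The table lists 4 further Yellow family genes. The y gene had 3040, 2155 and 2978 raw counts in tumour-bearing samples, against 4, 0 and 6 in control samples, and counts per gene do not tell the y+ cassette of the tumour-bearing larvae from the gene at its own place. The eggshell genes yellow-g and yellow-g2 held 1 to 3 and 2 counts in each tumour-bearing sample, against 0 to 2 in each control sample, and were not tested. With 44, 42 and 34 counts in tumour-bearing samples, against 15, 9 and 31 in control samples, yellow-k had a log2 fold change of 0.42 (adjusted p = 0.434 by edgeR).

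Crystal cell markers were mixed, with lz higher (log2 fold change 1.49, adjusted p = 0.00712) peb lower (-0.63, adjusted p = 0.0425), PPO1, which is also in the pathway list, lower, and PPO2 not past the test. Fat body markers took 0.00306% to 0.0273% of counts in tumour-bearing samples and 0.00312% to 0.0193% in control samples, with 0 of 7 higher and 1 lower. Eye-antennal disc markers took 0.00215% to 0.00387% of counts in tumour-bearing samples and 0.00213% to 0.00254% in control samples, with 1 of 6 higher (toy, log2 fold change 1.31, adjusted p = 0.00956) and 1 lower (eya, -2.94, adjusted p = 0.0168). Of 5 nerve markers 2 were higher, of 3 tracheal markers 1 was higher and 1 lower, of 4 salivary gland markers tested 2 were lower, and of 3 gut markers tested none passed. Of all genes tested, 23.8% were higher and 23% lower. With total counts 5 nerve, 3 eye-antennal disc, 2 tracheal and 1 crystal cell markers were higher. In that setting 1 eye-antennal disc and 1 salivary gland marker were lower. Of all genes tested 61.4% were higher there and 6.90% lower.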
